A study of Homo sapiens with 5 samples.

Results

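The 46 genes described here encode the machinery that copies DNA. They were taken from a list of symbols, and the rule for membership uses no measured value, although the list was drawn up with earlier results of these data known. By role, 7 belong to origin licensing, 13 to the replicative helicase, 19 to the polymerases, the sliding clamp and the other fork factors, 4 to nucleotide supply and 3 to chromatin assembly. All 46 were found among the 15187 genes that both deposited tables list. RNA was measured by sequencing in SAS cells, an established line from a squamous cell carcinoma of the tongue. A short hairpin RNA against CCT2 (shCCT2) was used for 3 libraries and a control hairpin (shCtrl) for 2, and CCT2 encodes a subunit of the TRiC/CCT chaperonin, which folds cytosolic proteins such as actin and tubulin. The libraries were deposited in separate tables, called here set A (shCCT2 1, shCCT2 2 and shCtrl 1) and set B (shCCT2 3 and shCtrl 2). Each shCCT2 library was set against the shCtrl library of its own set, so shCCT2 1 and shCCT2 2 share a control. The number of hairpin sequences, the time the cells carried them and whether libraries came from separate cultures are not given in the sources used here. The p-values thus rest on how far these libraries spread, and that spread may be technical.

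DNA replication begins when the origin recognition complex, CDC6 and CDT1 load the MCM2 to MCM7 ring onto origins in G1 phase. In S phase the ring is turned into an active helicase by CDC45 and the GINS complex, and DNA polymerases alpha, delta and epsilon copy the opened strands with the PCNA clamp, its loader RFC, the single-strand binding protein RPA, the nuclease FEN1 and ligase. Ribonucleotide reductase, thymidylate synthase and thymidine kinase supply deoxynucleotides, and the chromatin assembly factor CAF-1 puts histones onto the new DNA. Transcription of many of these genes is driven by E2F factors at the border of G1 and S phase, and their mRNA levels are widely read as a sign of cycling cells.

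The 5 libraries held 16913585 to 18156592 estimated counts each, and every member had at least 155 counts in every library. Levels are given as CPM, counts relative to library size scaled with TMM factors. CCT2 stood at 296.1, 272.4 and 260.2 CPM in shCCT2 1, 2 and 3, against 629.9 and 642.4 CPM in shCtrl 1 and 2. The groups did not overlap, and the fitted log2 change was -1.22 ± 0.18 (SE), which did not pass edgeR's quasi-likelihood test (Benjamini-Hochberg adjusted p = 0.542) and passed DESeq2's Wald test (adjusted p = 3.90e-05). Of the markers of squamous epithelium, 10 of 10 were detected in all 5 libraries. Their summed level was 6960 to 12700 CPM in the shCCT2 libraries, against 12500 CPM in shCtrl 1 and 2970 CPM in shCtrl 2. KRT8 and KRT18 made up most of this sum in every library. The summed level of fibroblast markers (3 of 8 listed in both tables) was 3.0 to 4.86 CPM in the shCCT2 libraries, against 4.5 and 12.3 CPM in shCtrl 1 and 2. That of leukocyte markers (5 of 7), most of it CD68, was 44.4 to 121 CPM, against 119 and 61.9 CPM, and that of endothelial markers (5 of 6) was 2.08 to 3.46 CPM, against 4.44 and 7.48 CPM. KDR and CLDN5 were each at 0 in 3 of the libraries. The sets stood apart: 29.7% of all genes tested differed 2-fold or more between shCtrl 2 and shCtrl 1. In bulk RNA, fewer cycling cells and less of these RNAs per cell cannot be told apart.

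Replication genes stood higher in the shCCT2 libraries than in their controls, by little in set A and by much in set B. Summed over the 46 genes, the level was 6582 CPM in shCCT2 1 and 5713 CPM in shCCT2 2, against 5386 CPM in shCtrl 1. In set B the sum was 6353 CPM in shCCT2 3, against 2191 CPM in shCtrl 2. By this sum the low library was a control, shCtrl 2, while shCCT2 3 lay within the range of the set A libraries. Single members lay outside that range on both sides. For CDC45, shCCT2 3 stood at 284.4 CPM, above the 47.0 to 61.1 CPM of set A. For MCM2 it stood at 234.6 CPM, below the 383.7 to 502.5 CPM of set A. The median log2 change of the members against their own control was 0.29 in shCCT2 1, 0.06 in shCCT2 2 and 1.41 in shCCT2 3, where the medians over all 13123 genes tested were -0.001, 0 and -0.02.

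In shCCT2 1, 42 of 46 members lay above shCtrl 1, where 49.7% of all genes tested did. In shCCT2 2, 30 of 46 lay above it, against a background of 49.7%. In shCCT2 3, 45 of 46 lay above shCtrl 2, against a background of 48.8%. A 2-fold or larger difference in that direction was seen for 0 members in shCCT2 1 (background 0.671%), 0 in shCCT2 2 (background 0.472%) and 35 in shCCT2 3 (background 8.37%). The member that was not above its control in shCCT2 3 was ORC2. Within set A, shCCT2 1 lay above shCCT2 2 for 40 of the members (background 48.8%), so the 2 knockdown libraries that share a control also differed from each other.

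**Figure D1:**
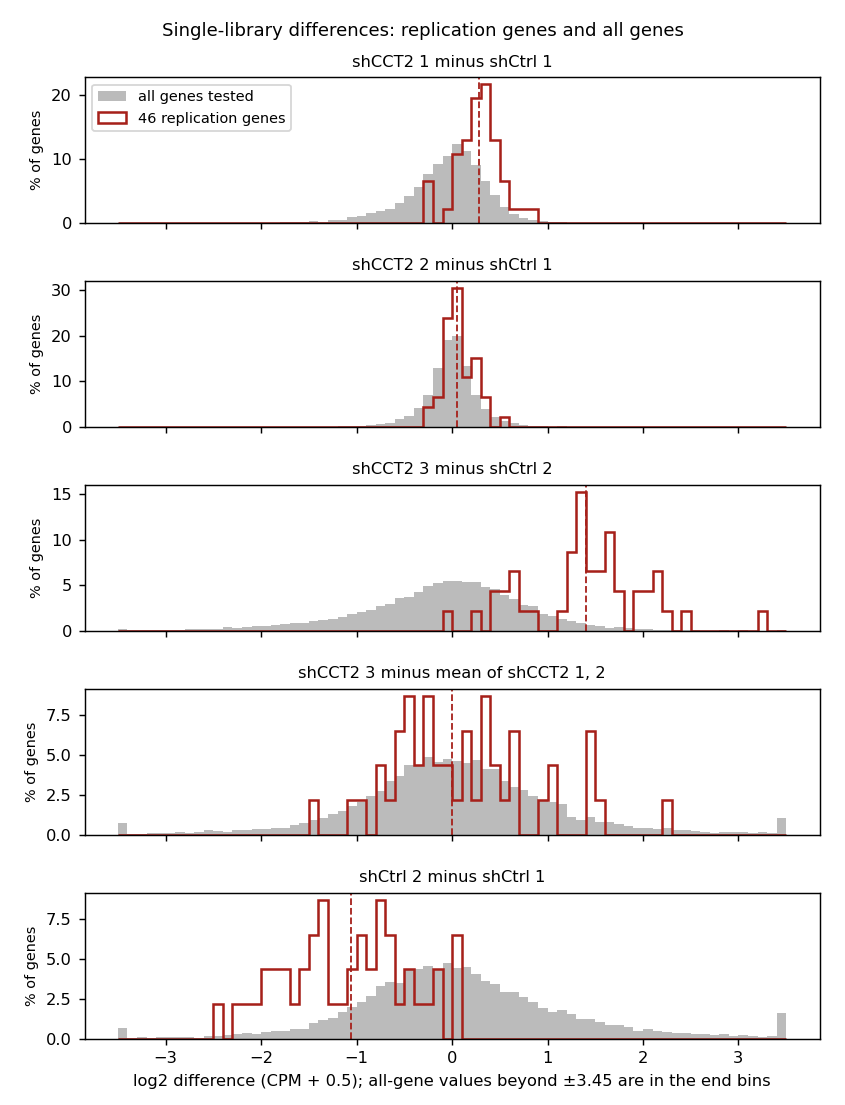
Distribution of log2 differences (of CPM + 0.5) in 5 panels, as the percent of genes per bin: shCCT2 1, 2 and 3 minus the shCtrl library of their own set, shCCT2 3 minus the mean of shCCT2 1 and 2, and shCtrl 2 minus shCtrl 1. Red outlines are the 46 replication genes with their median as a dashed line, and grey bars are all 13123 genes tested; the red median lies at 0.29, 0.06, 1.41, 0.003 and -1.05 from the top panel to the bottom one.

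Between the controls, 43 of 46 members were lower in shCtrl 2 than in shCtrl 1 (background 50.1%), 24 of them 2-fold or more (background 12.4%), with a median log2 difference of -1.05. Each control is 1 library, and this difference was not tested. The level in shCtrl 2 was the lowest of the 5 libraries for 42 members (background 29.4%), and the exceptions were ORC2, CDC6, CDT1 and RPA2. All 3 shCCT2 libraries lay above both shCtrl libraries for 18 members (background 7.97%). These are levels compared across sets that were deposited separately, scaled together here.

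The set B libraries differed from those of set A in ways that set the members apart. For 22 members, shCtrl 2 was 2-fold or more below shCtrl 1 while shCCT2 3 was within 2-fold of the mean of shCCT2 1 and 2 (background 5.88%). MCM2 to MCM7, PCNA, RRM2, UHRF1 and FEN1 were among these. For 7 members, CDC45, CDC6, CDT1, GINS3, ORC6, RPA2 and TYMS, shCtrl 2 was within 2-fold of shCtrl 1 while shCCT2 3 was 2-fold or more above the mean of the other knockdown libraries (background 4.88%). POLD3 and RFC2 were 2-fold or more lower in both libraries of set B (2 members, background 6.36%). The other 15 were within 2-fold on both counts (background 59.6%). Like ratios within set B thus stood beside unlike levels: the CPM of shCCT2 3 over shCtrl 2 was 3.16 for CDC6, whose controls were alike, and 2.96 for MCM6, whose shCtrl 2 level was low.

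**Figure D2:**
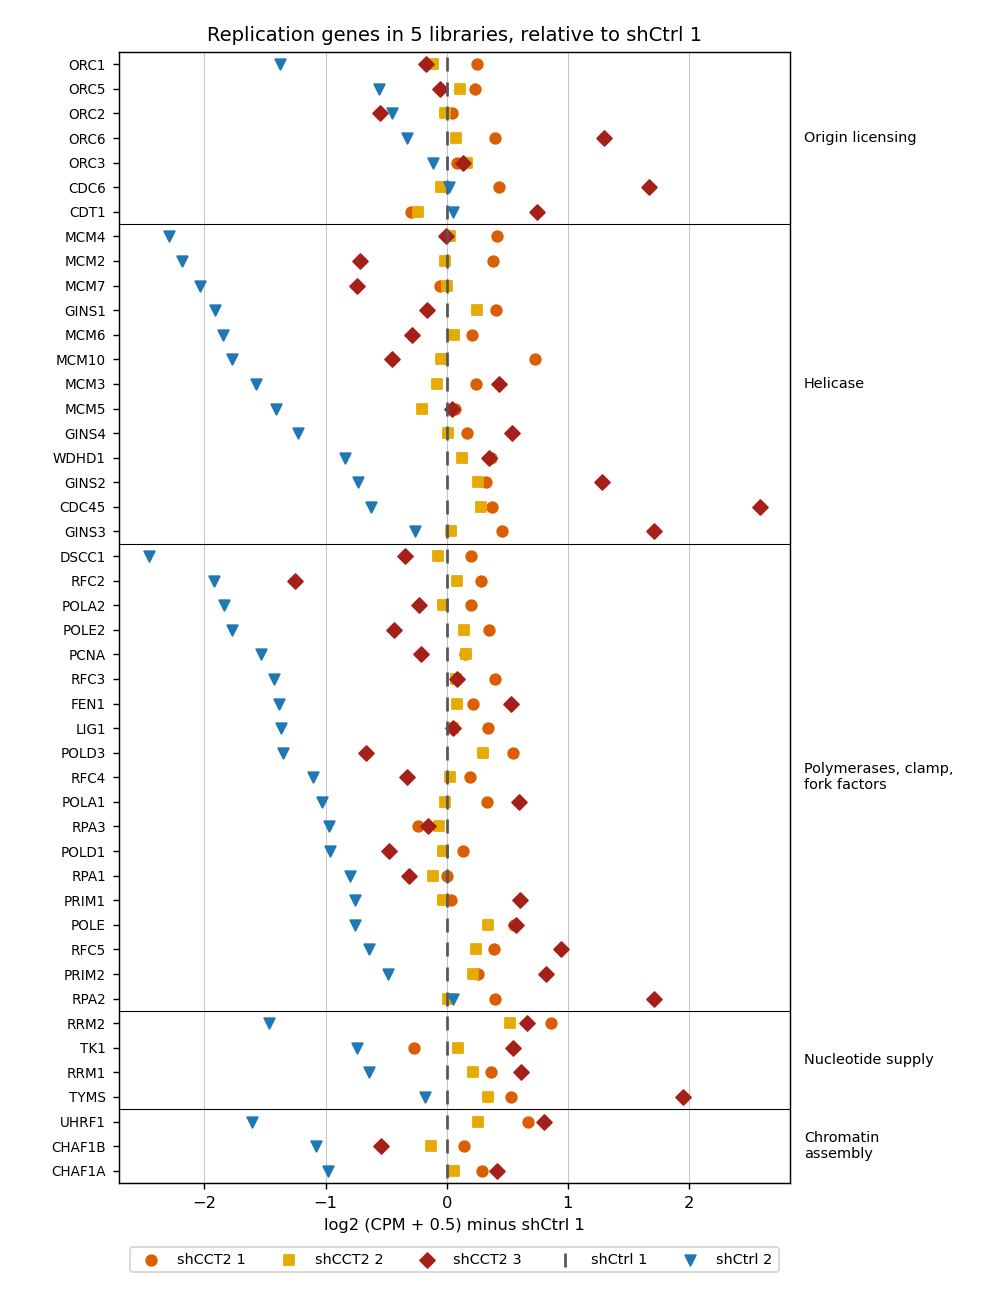
Level of each of the 46 replication genes as log2 (CPM + 0.5) minus the value in shCtrl 1, by role; circles, squares and diamonds are shCCT2 1, 2 and 3, the dashed bar is shCtrl 1 and triangles are shCtrl 2. In the helicase rows shCtrl 2 lies left of the other libraries, while in the rows of CDC6, CDC45, GINS3, RPA2 and TYMS shCCT2 3 lies far to the right.

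The promoters of these genes are shown because most of the genes lay 2-fold or more above their control in shCCT2 3, and E2F and NF-Y are known regulators of many of them. RefSeq (GRCh38.p14) gave a promoter of 300 bases, 250 before the start and 50 after it, for 39 of the 46 members. DSCC1, GINS4, MCM4, MCM5, POLD3, RPA2 and RPA3 were not matched. Any of the E2F words TTTCCCGC, TTTGGCGC, TTTGCCGC and TTTCGCGC, on either strand, was found in 19 of 39 members (48.7%), against 5.36% of 10628 promoters of genes tested and 3.33% of all 27305. The NF-Y word CCAAT, on either strand, was found in 22 of 39 (56.4%), against 36.5% and 35.7%. The CHR word TTTGAA, an element of genes expressed late in the cell cycle, was found in 1 of 39 (2.56%, RRM1), against 9.71% and 15.4%. Both an E2F word and CCAAT were found in 11 members and neither in 9. The 160 bases before the start are printed for 7 members that differ in these words and in how set B lay against set A, with whole E2F words and CCAAT or its complement ATTGG in capitals. In MCM6, E2F words on the 2 strands overlap and read as 1 run of capitals.
CDC6 (chr17:40287719-40287878, plus strand): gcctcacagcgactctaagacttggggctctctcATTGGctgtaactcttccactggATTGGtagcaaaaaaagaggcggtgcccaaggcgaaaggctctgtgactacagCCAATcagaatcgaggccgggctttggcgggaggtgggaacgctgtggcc
CDC45 (chr22:19479760-19479919, plus strand): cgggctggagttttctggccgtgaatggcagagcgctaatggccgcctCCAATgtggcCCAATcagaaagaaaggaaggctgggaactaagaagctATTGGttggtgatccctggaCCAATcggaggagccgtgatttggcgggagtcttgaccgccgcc
MCM6 (chr2:135876444-135876603, minus strand): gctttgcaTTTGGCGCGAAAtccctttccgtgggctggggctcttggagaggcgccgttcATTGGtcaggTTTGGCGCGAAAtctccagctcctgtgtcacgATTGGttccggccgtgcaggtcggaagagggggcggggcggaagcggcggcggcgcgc
PCNA (chr20:5126623-5126782, minus strand): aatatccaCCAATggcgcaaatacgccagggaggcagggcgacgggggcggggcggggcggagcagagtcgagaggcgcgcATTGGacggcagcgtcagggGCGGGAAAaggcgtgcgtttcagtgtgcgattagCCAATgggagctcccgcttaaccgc
RRM2 (chr2:10122579-10122738, plus strand): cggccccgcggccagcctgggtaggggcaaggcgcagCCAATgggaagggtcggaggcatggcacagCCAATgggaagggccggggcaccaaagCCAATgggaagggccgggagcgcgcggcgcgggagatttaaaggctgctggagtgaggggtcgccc
TYMS (chr18:657493-657652, plus strand): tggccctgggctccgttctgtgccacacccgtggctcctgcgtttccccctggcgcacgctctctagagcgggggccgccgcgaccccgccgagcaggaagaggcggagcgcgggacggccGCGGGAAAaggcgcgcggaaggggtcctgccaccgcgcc
UHRF1 (chr19:4909341-4909500, plus strand): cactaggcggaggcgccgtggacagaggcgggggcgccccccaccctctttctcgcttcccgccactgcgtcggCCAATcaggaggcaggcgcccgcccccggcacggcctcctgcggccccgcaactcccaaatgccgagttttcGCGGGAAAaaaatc

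In MCM6 the stretch TTTGGCGCGAAA occurs in 2 places, each with a word on both strands. Of the words searched, CDC45 has 4 CCAAT words and no E2F word. RRM2 has 3 CCAAT words in near-repeats and no E2F word, and TYMS has 1 E2F word and no CCAAT. Only exact words were counted: TTTGGCGG, 1 letter from a listed E2F word, stands in lower case in the printed bases of CDC6 and CDC45. The E2F word of CDC6 lies after the start and outside the printed bases. Members with an E2F word had changes of 0.34, 0.06 and 1.56 (log2, medians) in shCCT2 1, 2 and 3, and those without had 0.25, 0.08 and 1.27 (19 and 20 genes). The median difference between shCtrl 2 and shCtrl 1 was -1.43 with an E2F word and -0.82 without. Split by CCAAT, it was -0.89 with the word and -1.08 without (22 and 17 genes). Members without a matched promoter are in neither split. A match is a description of these letters, and binding was not measured.

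The genes of origin licensing stood least far from their controls, with medians of 0.23, -0.01 and 0.69 in shCCT2 1, 2 and 3, and shCtrl 2 lay 0.32 below shCtrl 1 at the median. In shCCT2 3, 3 of the 7 were 2-fold or more above shCtrl 2 (background 8.37%). CDC6, the ATPase that helps load the MCM ring, stood at 112.2 and 80.05 CPM in shCCT2 1 and 2, against 82.9 CPM in shCtrl 1, and at 265.5 CPM in shCCT2 3, against 83.9 CPM in shCtrl 2. The controls were alike and shCCT2 3 stood out, while shCCT2 2 lay below both controls. The fitted log2 change of CDC6 was 0.81 ± 0.36 (SE). ORC6, the smallest subunit of the origin recognition complex, stood at 53.4 and 42.7 CPM in shCCT2 1 and 2, against 40.4 CPM in shCtrl 1, and at 100.2 CPM in shCCT2 3, against 32.2 CPM in shCtrl 2. All 3 knockdown libraries lay above both controls, shCCT2 2 by little, and the fitted change was 0.82 ± 0.34.

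The other ORC genes had smaller fitted changes than ORC6. ORC1, the subunit whose protein is degraded in S phase, stood at 52.6 and 41.0 CPM in shCCT2 1 and 2, against 44.2 CPM in shCtrl 1, and at 39.3 CPM in shCCT2 3, against 16.7 CPM in shCtrl 2, with a fitted change of 0.55 ± 0.31. ORC2, ORC3 and ORC5, subunits of the core of the complex, had fitted changes of -0.03 ± 0.17, 0.18 ± 0.18 and 0.32 ± 0.20. ORC5 stood at 46.7 and 42.8 CPM in shCCT2 1 and 2, against 39.7 CPM in shCtrl 1, and at 38.2 CPM in shCCT2 3, against 26.8 CPM in shCtrl 2, so each knockdown library lay above its control. ORC2 was the 1 member with a fitted change below 0. CDT1, the partner of CDC6 in loading, stood at 49.3 and 51.2 CPM in shCCT2 1 and 2, against 60.6 CPM in shCtrl 1, and at 101.8 CPM in shCCT2 3, against 63.0 CPM in shCtrl 2. It lay below its control in set A and above it in set B, and its fitted change of 0.13 ± 0.25 averages the 2 directions.

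Helicase genes had the largest median in shCCT2 3 of the 5 roles, with medians of 0.36, 0.03 and 1.75 in shCCT2 1, 2 and 3. All 13 were 2-fold or more above shCtrl 2 in shCCT2 3 (background 8.37%), and all 13 had their lowest level in shCtrl 2 (background 29.4%). Summed over MCM2 to MCM7, the level was 2500 and 2127 CPM in shCCT2 1 and 2, against 2137 CPM in shCtrl 1. It was 1762 CPM in shCCT2 3, against 531 CPM in shCtrl 2. The ring genes thus differed within set B while shCCT2 3 itself lay below all 3 libraries of set A in the sum.

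The 6 ring genes behaved alike in shCtrl 2 and less so in shCCT2 3. MCM2 stood at 502.5 and 383.7 CPM in shCCT2 1 and 2, against 386.3 CPM in shCtrl 1, and at 234.6 CPM in shCCT2 3, against 84.8 CPM in shCtrl 2. MCM3 stood at 203.4 and 162.4 CPM in shCCT2 1 and 2, against 172.1 CPM in shCtrl 1, and at 231.7 CPM in shCCT2 3, against 57.4 CPM in shCtrl 2. MCM4, which with MCM6 and MCM7 forms the part of the ring with helicase activity on its own, stood at 788.1 and 602.8 CPM in shCCT2 1 and 2, against 590.2 CPM in shCtrl 1, and at 589.4 CPM in shCCT2 3, against 120.4 CPM in shCtrl 2. In all of these shCtrl 2 lay far below the other libraries, and MCM3 was highest in shCCT2 3. In shCCT2 3, MCM2 and, by very little, MCM4 lay below set A. MCM5 stood at 170.0 and 141.1 CPM in shCCT2 1 and 2, against 162.3 CPM in shCtrl 1, and at 167.2 CPM in shCCT2 3, against 60.8 CPM in shCtrl 2. MCM6 stood at 240.4 and 216.9 CPM in shCCT2 1 and 2, against 208.0 CPM in shCtrl 1, and at 170.1 CPM in shCCT2 3, against 57.5 CPM in shCtrl 2. MCM7 stood at 595.9 and 620.0 CPM in shCCT2 1 and 2, against 617.7 CPM in shCtrl 1, and at 369.5 CPM in shCCT2 3, against 149.9 CPM in shCtrl 2. Within set A the MCM2, MCM3, MCM5 and MCM7 levels lay on both sides of the control. In a fit of set A alone, the changes in that order were 0.20, 0.09, -0.06 and -0.02.

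The fitted log2 changes of the ring genes were 0.72 ± 0.33 (SE) for MCM2, 0.86 ± 0.43 for MCM3, 1.05 ± 0.47 for MCM4, 0.56 ± 0.35 for MCM5, 0.72 ± 0.34 for MCM6 and 0.52 ± 0.32 for MCM7. Their log2 difference between shCtrl 2 and shCtrl 1 ran from -2.29 for MCM4 to -1.41 for MCM5.

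**Figure D3:**
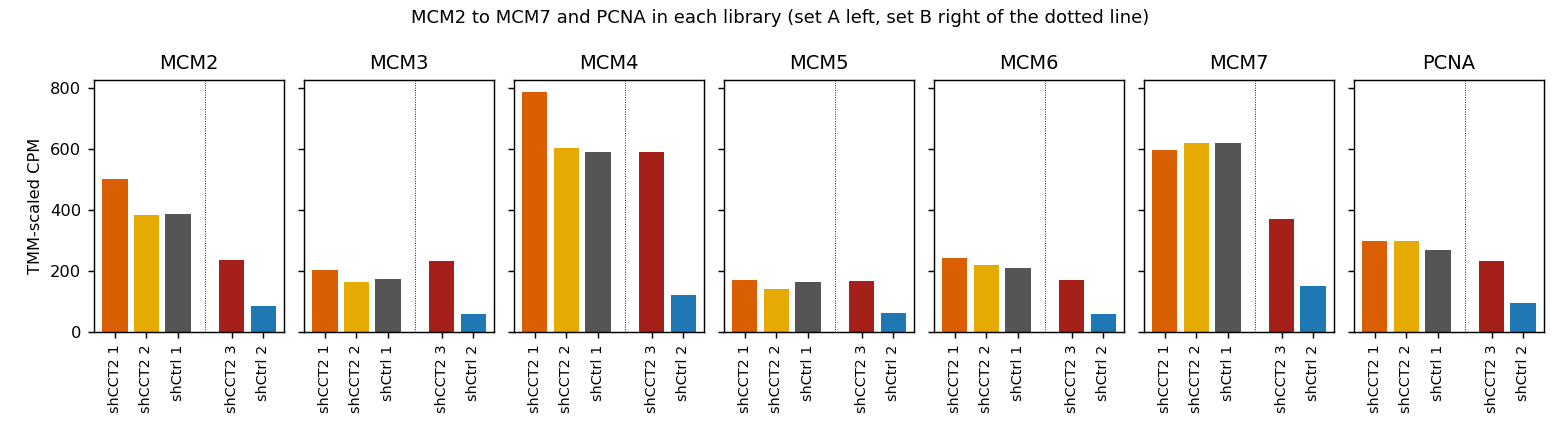
CPM of MCM2 to MCM7 and of PCNA in each library, on a linear axis from 0, with the libraries of set A (shCCT2 1, shCCT2 2, shCtrl 1) left of those of set B (shCCT2 3, shCtrl 2). The shCtrl 2 bar is the lowest in every panel. The shCCT2 3 bar lies above the set A bars for MCM3 and below them for MCM2, MCM6, MCM7, PCNA and, by very little, MCM4.

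CDC45 and the GINS complex turn the loaded ring into the active helicase. CDC45 stood at 61.1 and 57.3 CPM in shCCT2 1 and 2, against 47.0 CPM in shCtrl 1, and at 284.4 CPM in shCCT2 3, against 30.2 CPM in shCtrl 2. It was above its control in each knockdown library, and its 9.41-fold ratio of CPM in set B was the largest of the members, beside 1.30 and 1.22 in set A. Its fitted log2 change was 1.45 ± 0.64 (SE), with the largest SE of the members. GINS1 stood at 81.6 and 72.8 CPM in shCCT2 1 and 2, against 61.3 CPM in shCtrl 1, and at 54.7 CPM in shCCT2 3, against 15.9 CPM in shCtrl 2, with a fitted change of 0.92 ± 0.34. GINS2 stood at 30.2 and 28.7 CPM in shCCT2 1 and 2, against 24.0 CPM in shCtrl 1, and at 59.0 CPM in shCCT2 3, against 14.2 CPM in shCtrl 2, with a fitted change of 1.01 ± 0.41. The 2 genes differed across sets: shCCT2 3 was below set A for GINS1 and above it for GINS2, whose groups did not overlap. GINS3 and GINS4 had fitted changes of 0.98 ± 0.42 and 0.79 ± 0.41.

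WDHD1, also called AND-1, which ties polymerase alpha to the helicase, stood at 83.7 and 71.0 CPM in shCCT2 1 and 2, against 65.0 CPM in shCtrl 1, and at 82.8 CPM in shCCT2 3, against 36.1 CPM in shCtrl 2. Its groups did not overlap, the knockdown libraries of the sets were close to each other, and the fitted change was 0.65 ± 0.26 (SE). MCM10, which helps to activate the helicase, had a fitted change of 0.79 ± 0.33, with 0.73 in shCCT2 1 and -0.05 in shCCT2 2, the widest gap between the knockdown libraries of set A among the helicase genes.

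The polymerase, clamp and fork genes had medians of 0.26, 0.06 and 1.34 in shCCT2 1, 2 and 3. Their lowest library was shCtrl 2 in 18 of 19 (background 29.4%). In shCCT2 3, 13 of the 19 were 2-fold or more above shCtrl 2 (background 8.37%). POLE, the catalytic subunit of polymerase epsilon, which copies the leading strand, stood at 117.3 and 101.3 CPM in shCCT2 1 and 2, against 79.7 CPM in shCtrl 1, and at 118.7 CPM in shCCT2 3, against 47.1 CPM in shCtrl 2. The 3 knockdown libraries were close to each other and above both controls, with a fitted change of 0.82 ± 0.25 (SE). POLD3, an accessory subunit of polymerase delta, stood at 106.3 and 89.8 CPM in shCCT2 1 and 2, against 72.7 CPM in shCtrl 1, and at 45.7 CPM in shCCT2 3, against 28.3 CPM in shCtrl 2. Both set B libraries lay below set A, and the changes within the sets were of like size, 0.54, 0.30 and 0.68, with a fitted change of 0.54 ± 0.19. The other polymerase and primase genes had fitted changes of 0.77 ± 0.36 for POLA1, 0.71 ± 0.36 for POLA2, 0.57 ± 0.32 for PRIM1, 0.69 ± 0.29 for PRIM2, 0.24 ± 0.20 for POLD1 and 0.71 ± 0.31 for POLE2.

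PCNA, the sliding clamp, stood at 297.9 and 298.6 CPM in shCCT2 1 and 2, against 267.6 CPM in shCtrl 1, and at 231.3 CPM in shCCT2 3, against 92.0 CPM in shCtrl 2. The shCtrl 2 library was the lowest and the set A libraries lay close together, with a fitted change of 0.64 ± 0.29 (SE). RFC3, a subunit of the clamp loader, stood at 118.9 and 95.1 CPM in shCCT2 1 and 2, against 89.95 CPM in shCtrl 1, and at 95.2 CPM in shCCT2 3, against 33.1 CPM in shCtrl 2, with a fitted change of 0.77 ± 0.32. RFC5, another subunit, stood at 72.3 and 65.3 CPM in shCCT2 1 and 2, against 55.0 CPM in shCtrl 1, and at 106.2 CPM in shCCT2 3, against 35.0 CPM in shCtrl 2, with a fitted change of 0.85 ± 0.31. Neither gene's groups overlapped. RFC2 and RFC4 had fitted changes of 0.39 ± 0.20 and 0.39 ± 0.22.

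DSCC1, part of an alternative clamp loader that acts in sister chromatid cohesion, stood at 69.9 and 57.6 CPM in shCCT2 1 and 2, against 60.7 CPM in shCtrl 1, and at 47.7 CPM in shCCT2 3, against 10.7 CPM in shCtrl 2. The log2 difference between the controls, -2.46, was the widest of the members, and the fitted change was 0.88 ± 0.46 (SE). FEN1, the nuclease that trims Okazaki fragments, stood at 113.1 and 102.7 CPM in shCCT2 1 and 2, against 96.99 CPM in shCtrl 1, and at 140.7 CPM in shCCT2 3, against 36.8 CPM in shCtrl 2. Its groups did not overlap, although shCCT2 2 was near shCtrl 1, and the fitted change was 0.87 ± 0.40. LIG1, the ligase that seals the fragments, had a fitted change of 0.71 ± 0.32. The RPA subunits were spread, with fitted changes of 0.18 ± 0.20 for RPA1, 0.82 ± 0.35 for RPA2 and 0.25 ± 0.26 for RPA3. RPA2 stood at 66.2 and 50.4 CPM in shCCT2 1 and 2, against 49.9 CPM in shCtrl 1, and at 164.2 CPM in shCCT2 3, against 51.7 CPM in shCtrl 2. The 3 subunits form 1 complex, yet only RPA2 was 2-fold or more above its control in shCCT2 3.

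The nucleotide supply genes had the largest medians in set A, 0.45 in shCCT2 1 and 0.28 in shCCT2 2, and 1.71 in shCCT2 3. All 4 were 2-fold or more above shCtrl 2 in shCCT2 3 (background 8.37%). RRM2, the small subunit of ribonucleotide reductase, whose level limits the enzyme in S phase, stood at 610.6 and 482.3 CPM in shCCT2 1 and 2, against 335.7 CPM in shCtrl 1, and at 530.9 CPM in shCCT2 3, against 120.9 CPM in shCtrl 2. The 3 knockdown libraries lay well above both controls. The fitted log2 change was 1.29 ± 0.36 (SE), and RRM2 was the 1 member at an unadjusted p under 0.05 when set A alone gave the change. RRM1, the large subunit, stood at 237.9 and 214.2 CPM in shCCT2 1 and 2, against 184.6 CPM in shCtrl 1, and at 281.9 CPM in shCCT2 3, against 118.4 CPM in shCtrl 2, with groups that did not overlap and a fitted change of 0.69 ± 0.26.

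TYMS, thymidylate synthase, stood at 110.4 and 96.8 CPM in shCCT2 1 and 2, against 76.2 CPM in shCtrl 1, and at 296.6 CPM in shCCT2 3, against 67.2 CPM in shCtrl 2. The controls were close, the groups did not overlap, and the fitted change was 1.13 ± 0.39 (SE). TYMS overlaps ENOSF1 and its antisense gene TYMSOS and had non-whole counts in all 5 libraries, so its reads may be split. TK1, thymidine kinase of the salvage pathway, had changes of -0.27, 0.10 and 1.29 in shCCT2 1, 2 and 3 and a fitted change of 0.49 ± 0.33.

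Of the chromatin genes, UHRF1, which brings the maintenance DNA methyltransferase to newly copied DNA, stood at 146.3 and 110.1 CPM in shCCT2 1 and 2, against 91.8 CPM in shCtrl 1, and at 161.0 CPM in shCCT2 3, against 29.7 CPM in shCtrl 2. All 3 knockdown libraries were above both controls, and the fitted log2 change was 1.26 ± 0.45 (SE). CHAF1A, the large subunit of CAF-1, stood at 79.6 and 67.6 CPM in shCCT2 1 and 2, against 65.0 CPM in shCtrl 1, and at 86.9 CPM in shCCT2 3, against 32.7 CPM in shCtrl 2. Its groups did not overlap, shCCT2 2 lay close to shCtrl 1, and the fitted change was 0.69 ± 0.30. CHAF1B, the middle subunit, had a fitted change of 0.23 ± 0.23.

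The knockdown effect was then tested on all 5 libraries with the set as a term. None of the 46 members passed edgeR's quasi-likelihood test, with Benjamini-Hochberg adjusted p from 0.542 to 0.944, nor did any other gene (background 0%). DESeq2's Wald test passed 0 members at an adjusted p under 0.05, where it passed 0.0152% of all genes upward. The fitted change was above 0 for 45 of 46 members (background 48.5%), with a median of 0.71 beside -0.02 over all genes. At an unadjusted p under 0.05, 12 members were higher (background 2.83%) and 0 lower (background 4.57%). The 12 were GINS1, GINS2, ORC6, POLD3, POLE, RFC3, RFC5, RRM1, RRM2, TYMS, UHRF1 and WDHD1. Leaving out shCtrl 2 or shCCT2 3, which leaves set A to give the change, reduced the 12 to 1 and the median change to 0.18 (background 0.586% without shCtrl 2 and 0.65% without shCCT2 3). Leaving out shCtrl 1, which leaves set B to give it, made them 40 and 1.46 (background 15.1%), and leaving out shCCT2 2 made them 29 and 0.90 (background 5.02%). The share of all genes thus moved in the same direction as that of the members. Without shCtrl 1 the change comes from 1 library per group, and the spread comes from shCCT2 1 and 2 alone, so shCCT2 3 and shCtrl 2 are assumed to vary like them.

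Whether the effect differed between the sets was tested as the interaction of set and hairpin, set B minus set A. The median log2 difference of the members was 1.28, beside 0 over all genes, and 45 of 46 were above 0 (background 50.0%). No member passed edgeR's test (background 0%; Benjamini-Hochberg adjusted p at least 0.0932, that of CDC45), while 36 had an unadjusted p under 0.05 and a positive difference (background 7.83%) and 0 a negative one (background 9.35%). DESeq2's Wald test passed 11 members upward at an adjusted p under 0.05 (background 1.07%): CDC45, DSCC1, FEN1, MCM3 to MCM7, RRM2, TYMS and UHRF1. CDC45 had a difference of 2.90 ± 0.29 (SE, edgeR), and DESeq2 gave it an adjusted p of 4.93e-08. This fit had 1 residual degree of freedom, and the only replicated spread behind it is that between shCCT2 1 and shCCT2 2. Set B holds 1 library per group, so the set and a peculiarity of either library cannot be told apart.

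**Figure D4:**
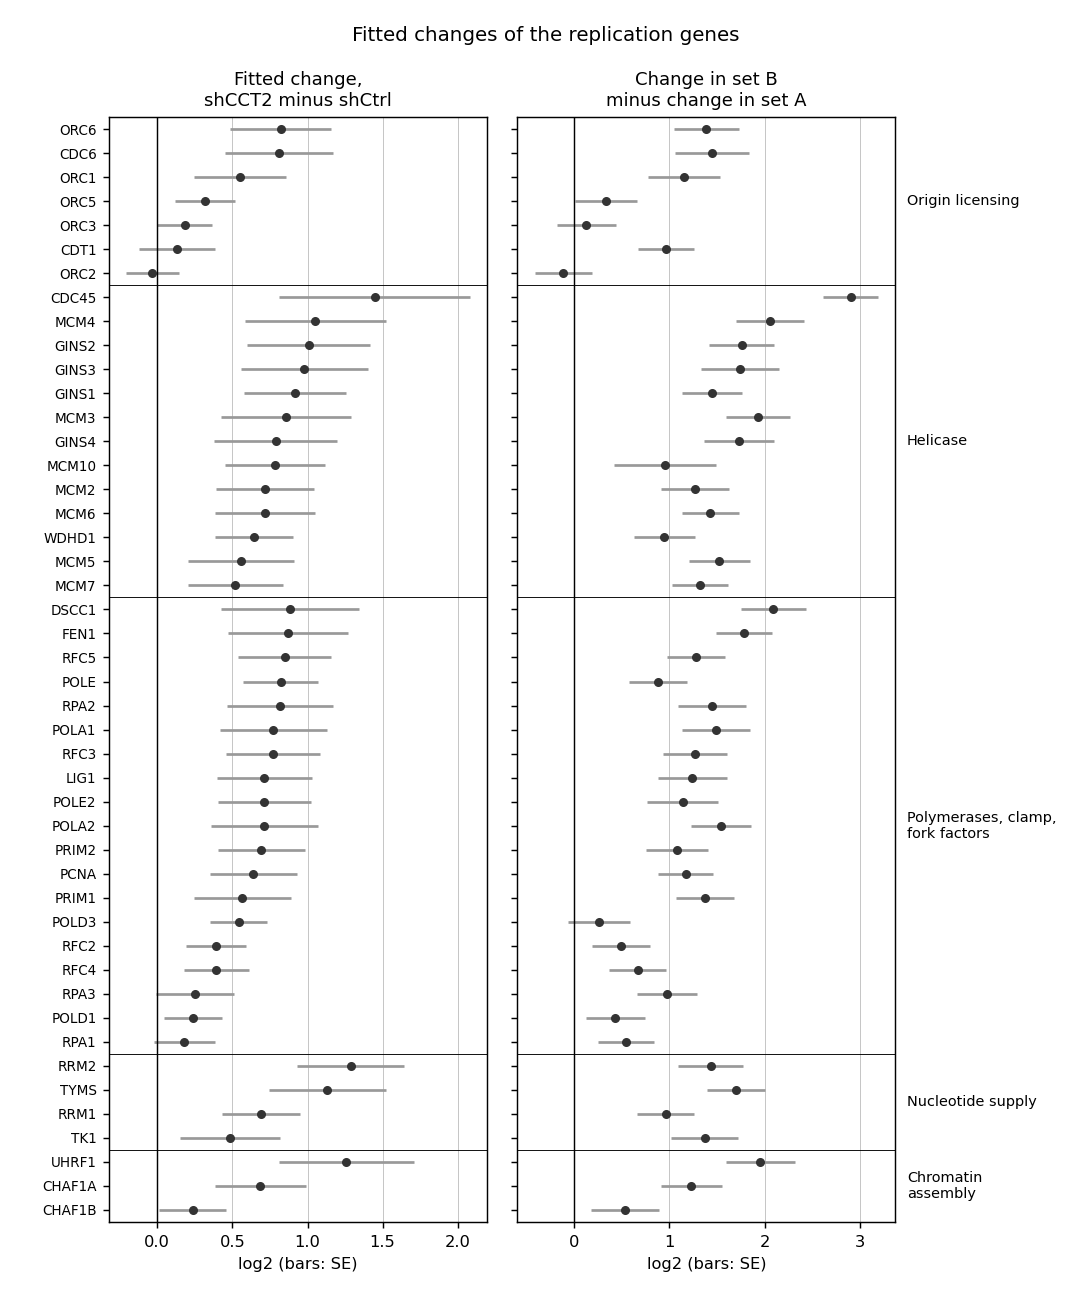
Fitted log2 changes of the 46 members, shCCT2 over shCtrl (left panel), and the difference of that change between sets, set B minus set A (right panel), with bars of 1 SE, by role. All but ORC2 lie right of 0 in both panels, and CDC45 has the largest value in each.

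The rest of the replication pathway behaved much like the members. Of 42 other replication genes, 40 had a fitted change above 0 (background 48.5%). The medians were 0.31, 0.09 and 1.08 in shCCT2 1, 2 and 3. In shCCT2 3, 24 of the 42 were 2-fold or more above shCtrl 2 (background 8.37%). None passed edgeR's or DESeq2's adjusted test. At an unadjusted p under 0.05 (edgeR), 14 were higher (background 2.83%) and 0 lower (background 4.57%). CDC7, the kinase that fires origins, stood at 40.2, 32.3 and 39.96 CPM in shCCT2 1, 2 and 3, against 25.9 and 20.2 CPM in shCtrl 1 and 2, with no overlap and a fitted change of 0.70 ± 0.24 (SE). DCK, which phosphorylates salvaged deoxynucleosides, had a fitted change of 0.61 ± 0.21, DNA2, a nuclease and helicase of Okazaki fragments, had 0.76 ± 0.27, and POLE3, a histone-fold subunit of polymerase epsilon, had 0.89 ± 0.32.

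The lists of G1/S regulators and of G2/M genes had a smaller or a negative median in set B, with single genes on both sides. The 21 regulators of G1/S had medians of 0.33, 0.13 and 0.50 in shCCT2 1, 2 and 3. None passed edgeR's adjusted test. At an unadjusted p under 0.05 (edgeR), 7 were higher (background 2.83%) and 1 lower (background 4.57%). CCND1, which encodes cyclin D1, stood at 497.5, 490.3 and 433.7 CPM in shCCT2 1, 2 and 3, against 284.2 and 295.4 CPM in shCtrl 1 and 2. Its controls were alike and its groups did not overlap, with a fitted change of 0.69 ± 0.19 (SE). Other genes of the list had large differences in set B. Of the 21, 7 were 2-fold or more above shCtrl 2 in shCCT2 3 (background 8.37%): CCNE2, CDC25A, E2F2, E2F7, E2F8, RBL1 and TFDP1. CCNE2, which encodes a cyclin E and is named after its value was seen, stood at 43.1, 36.2 and 86.9 CPM in shCCT2 1, 2 and 3, against 24.0 and 9.70 CPM in shCtrl 1 and 2. Its groups did not overlap, and its difference between the sets was 2.44 ± 0.35 (SE), which DESeq2's Wald test passed (adjusted p = 0.00187) and edgeR's test did not (Benjamini-Hochberg adjusted p = 0.125). The median difference between the sets was 0.12 over the list. At an unadjusted p under 0.05 (edgeR), 6 were positive (background 7.83%) and 0 negative (background 9.35%). RBL1 and E2F2, a pocket protein and an E2F factor, had fitted changes of 0.97 ± 0.30 and 0.88 ± 0.27, and CDKN1A, the cyclin-dependent kinase inhibitor p21, had 0.61 ± 0.19. RBL2 and E2F1, of the same families, went the other way, with fitted changes of -0.73 ± 0.24 and -0.45 ± 0.19. Both lay below their control in each knockdown library, and RBL2 was the 1 lower gene counted above.

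The 25 genes of G2 and mitosis had medians of 0.39, 0.23 and -0.24 in shCCT2 1, 2 and 3. Their median difference between the sets was -0.62, where that of the replication genes was 1.28. None passed edgeR's test of that difference, and DESeq2 passed PLK1 as lower and MYBL2 as higher. At an unadjusted p under 0.05 (edgeR), 9 had a negative difference (background 9.35%) and 1 a positive one (background 7.83%). PLK1, a kinase of mitotic entry, is named after its value was seen: it stood at 168.2, 152.3 and 49.8 CPM in shCCT2 1, 2 and 3, against 137.7 and 117.2 CPM in shCtrl 1 and 2. The shCCT2 3 library was thus the lowest for PLK1, where shCtrl 2 was the lowest for most replication genes. NDC80, a kinetochore gene, and MKI67, the Ki-67 proliferation marker, had fitted changes of 0.51 ± 0.17 (SE) and 0.72 ± 0.26. FOXM1 and MYBL2, transcription factors of late cell cycle genes, had 0.59 ± 0.22 and 0.92 ± 0.34.

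The polymerases of translesion synthesis and repair, a family related to the replicative ones but not tied to S phase as a group, lay near 0. Of 11, 10 were tested, with medians of 0.07, 0.05 and -0.01 in shCCT2 1, 2 and 3. POLQ, the polymerase of microhomology end joining, had a fitted change of 0.46 ± 0.17 (SE), POLL had -0.57 ± 0.25, POLI had -0.90 ± 0.48 and REV3L had 0.36 ± 0.24, and none passed edgeR's adjusted test.

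**Figure D5:**
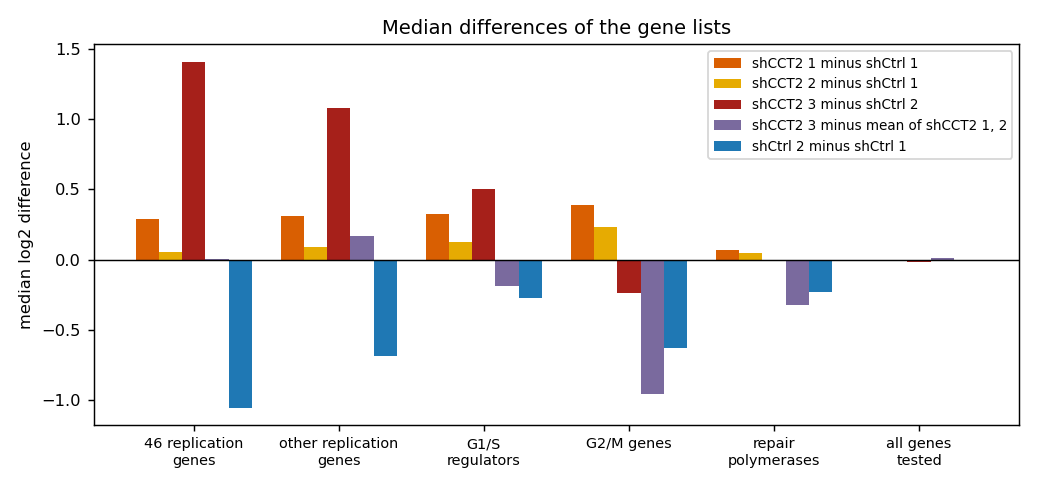
Median log2 difference of the 46 replication genes, the other replication genes, the G1/S and G2/M lists, the repair polymerases and all genes tested, with 5 bars each: shCCT2 1, 2 and 3 minus the shCtrl library of their own set, shCCT2 3 minus the mean of shCCT2 1 and 2, and shCtrl 2 minus shCtrl 1. The bar of shCCT2 3 against its control is tall for the replication genes (1.41) and negative for the G2/M genes (-0.24).

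Other measures differed between the libraries, and their part in the replication gene values was not tested. The median log2 difference between shCtrl 2 and shCtrl 1 was -1.87 for the squamous epithelial markers. CDH1, the epithelial cadherin, stood at 185, 213 and 24.96 CPM in shCCT2 1, 2 and 3, against 251 and 10.6 CPM in shCtrl 1 and 2, so both set B libraries were low for it. KRT6A stood at 45.6, 45.9 and 631 CPM in shCCT2 1, 2 and 3, against 40.3 and 64.8 CPM in shCtrl 1 and 2, high in shCCT2 3 alone. The share of reads in the last 20% of positions along transcripts, by the deposited coverage, was 13.8%, 15.3% and 14.1% in shCCT2 1, 2 and 3, against 16.7% and 15.2% in shCtrl 1 and 2, and the set B values lay within the range of set A. PTPRC, the pan-leukocyte marker, stood at 0.648, 6.51 and 0.0546 CPM in shCCT2 1, 2 and 3, against 0.0577 and 0.424 CPM in shCtrl 1 and 2, and was highest in shCCT2 2, a library of set A.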

How the data were processed

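RNA-seq was run on 5 libraries of SAS cells. Per the labels' protocols, Trizol RNA was selected with oligo(dT) beads and reverse transcribed from random hexamers for an MGI sequencer. Per the file headers, the authors' 2 gene tables (set A and set B) hold read counts. Only 86.2% to 87.9% of the values in a library were whole, so the deposited values are expected counts, which were rounded here. The authors also deposited a signal of read coverage along transcripts for each library, per the file headers. STAR 1.5.1, HTSeq and a mouse build, mm10, appear in the submitters' processing notes, while 98.8% of the gene identifiers of set A and 98.7% of those of set B matched human RefSeq genes of GRCh38.p14. The genome build, the annotation and the use of strand in counting are not given in the sources used here. The printed promoters and their coordinates are RefSeq's, not the authors'.

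The sets were joined on the gene identifier. Of 15187 shared genes, 13123 passed the filter on low counts (edgeR's filterByExpr, by group), all 46 members among them, and 763 and 1032 genes listed in set A or set B alone were not tested. The test was the quasi-likelihood test of edgeR 4.0.16 (R 4.3.3) with TMM factors of 0.936 to 1.12, the set and the hairpin as terms and Benjamini-Hochberg adjustment over all genes tested, at a threshold of 0.05. It had 2 residual degrees of freedom and a common biological coefficient of variation of 0.255. The difference between sets is the interaction term added to that model. SE is the size of the fitted log2 change over the square root of its F statistic. Changes of single libraries are differences of log2 (TMM-scaled CPM + 0.5), which slightly understates low genes. DESeq2 1.42.0, other scalings, filters, designs and each library left out were the alternatives. Every pair of libraries differed beyond sampling noise (chi-square per degree of freedom at least 20.3), so none was counted as a copy.

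Members overlapping another listed gene were CHAF1A, GINS2, MCM7, ORC1, ORC3, PRIM2, RFC5, RPA3 and TYMS, and ORC6, POLA2, PRIM2, RFC5 and TYMS had non-whole counts in 1 to 5 libraries, so their reads may be shared with other genes. The rule for membership uses gene symbols and no measured value, but the members and lists were chosen with earlier results of these data known. Full values are given by rule for CCT2, the 2 members per role with the largest fitted changes, those at an unadjusted p under 0.05 with the same sign in each knockdown library, MCM2 to MCM7 and PCNA, and up to 4 genes of smallest p are named in each other list. ORC1, CDT1, ORC5, RPA2, RPA3, CCNE2, RBL2, E2F1, PLK1, CP, CX3CL1 and the single marker genes are given in addition, after their values were seen.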

Additional observations from a re-analysis of the deposited data

Results flagged for a closer look

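CDT1 and RPA3 were the members for which both knockdown libraries of set A lay below their control while shCCT2 3 lay above its own. For CDT1, which loads the MCM ring, the log2 changes were -0.30 and -0.24 in shCCT2 1 and 2 and 0.69 in shCCT2 3, a fitted difference between sets of 0.96. For RPA3, the small subunit of the single-strand binding protein, they were -0.24, -0.06 and 0.81, a difference of 0.97. Neither difference passed edgeR's quasi-likelihood test (Benjamini-Hochberg adjusted p = 0.215 for CDT1 and 0.228 for RPA3). RPA3 stood at 50.7, 57.4 and 53.7 CPM in shCCT2 1, 2 and 3, against 59.9 and 30.4 CPM in shCtrl 1 and 2, so shCtrl 2 was the library that stood apart for it.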

How the results depend on the processing

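No member passed at an adjusted p under 0.05 under any alternative, and 40 to 46 of the 46 fitted changes were above 0. The set used decided the size: the median change of the members was 0.182 to 1.459 with 1 library left out, and the members at an unadjusted p under 0.05 were 1 to 40 (1 also with set A alone, 2 with no set term, 29 with DESeq2). The share of all genes higher at that p moved too: 0.586% to 15.1% with 1 library left out, 0.704% with set A alone, 0.221% with no set term and 4.05% with DESeq2, beside 2.83%. Over all genes, 0 to 2 passed with 1 library left out (CP and CX3CL1 without shCCT2 replicate 2) and 13 with DESeq2. For the difference between sets, 54 genes passed with the stricter filter, of which 1 is a member (CDC45), and 263 with DESeq2, of which 11 are members. With the replicate number as a block in place of the set, the median was 0.671 and 5 members had an unadjusted p under 0.05 (0.808% of all genes). Shared numbers do not pair these libraries by set: shCtrl 2 and shCCT2 2 are in different sets. Deviations from the group means correlated at 0.685 for number 1 and -0.602 for number 2. With 2 controls the deviations of shCtrl 1 and 2 mirror each other, so the signs follow the sets and cannot test pairing by number. Of 888 values for single genes under the alternatives, 24 in 7 members changed sign. With 1 library left out, these ran from -0.271 (without shCtrl 2) to 0.723 for CDT1, -0.062 to 1.488 for MCM5, -0.024 to 1.331 for MCM7, -0.068 to 0.017 for ORC2, -0.052 to 0.524 for RPA1, -0.150 to 0.850 for RPA3 and -0.076 to 1.323 for TK1. In that order the values with set A alone were -0.269, -0.061, -0.022, 0.018, -0.051, -0.149 and -0.075. ORC2 was also 0.061 with no set term and 0.246 with the replicate block, and CDT1 was -0.298 with the block. CCT2 had adjusted p from 3.90e-05 to 0.99996. The all-gene median was -0.081 without scaling factors. Set B has 1 library per group, so its spread was not measured. Every member had 155 or more counts in each library.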
